A study of Homo sapiens with 16 samples.

Results

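The genes described here encode the translation initiation factors, eIF1 to eIF6. They were taken from the table by symbol: rows beginning with EIF1, EIF2, EIF3, EIF4, EIF5 or EIF6 were kept, and the EIF2AK kinases, symbols ending in P plus digits and symbols with hyphens were left out. Of 71 rows with such a start, 47 stayed, out of 17738 genes in the table. The 24 rows left out were 4 EIF2AK genes, 2 hyphenated symbols and 18 ending in P plus digits, mostly pseudogenes but also the 3 eIF4E-binding proteins EIF4EBP1, EIF4EBP2 and EIF4EBP3. All 47 passed the filter on low values, and the smallest number of reads of any of them in any library was 41.

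Transcripts were measured by RNA sequencing of polyadenylated RNA in the H1 line of human embryonic stem cells, an established line of wild-type genotype, with 2 libraries in each of 8 groups. Every group was grown for 24 h in E7, which is E8 medium lacking TGFb and still holds insulin, FGF2, transferrin, selenite and ascorbate. The groups were E7+2DG and E7, E7+TGFb+2DG and E7+TGFb, E7+ActivinA+2DG and E7+ActivinA, and E7+NODAL+2DG and E7+NODAL, where 2DG stands for 2-deoxyglucose at a dose of 3 mM. The dose of TGFb was 1.74 ng/mL, and that of NODAL and of Activin A was 100 ng/mL. 2DG is a glucose analog that blocks glycolysis and also disturbs the attachment of sugars to proteins, and the 3 ligands activate SMAD2 and SMAD3. The labels do not say that the 2 libraries of a group came from separate cultures, so p-values measure only the spread between these samples, and with bulk RNA fewer cells of a kind and less RNA per cell cannot be told apart.

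Initiation begins when eIF1, eIF1A, eIF3 and eIF5 assemble on the small ribosomal subunit with eIF2, which carries the initiator methionyl-tRNA as a complex with GTP. The eIF4F complex, made of the cap-binding eIF4E, the scaffold eIF4G and the helicase eIF4A, brings this assembly to the capped end of an mRNA, and after the start codon has been found eIF5B joins the large subunit. Cells turn the process down by phosphorylating the alpha subunit of eIF2, which then blocks its exchange factor eIF2B, or by letting 4E-BP proteins hold eIF4E away from eIF4G.

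Recovered reads ranged from 14600479 to 17630329 a library. All 10 pluripotency markers checked, among them POU5F1, SOX2 and NANOG, were in the table, with summed levels of 139592 to 167162 normalised reads with 2DG and 151383 to 186313 without it. The table holds only genes with a read in every library; of the markers of other cell types, 4 of 8 fibroblast, 3 of 5 trophoblast, 3 of 4 neural, 1 of 3 endoderm, 1 of 3 mesoderm and 0 of 3 blood genes were in it. Some of these markers moved with the groups. The genes of the fibroblast list found in the table (COL1A1, COL1A2, THY1 and PDGFRA) summed to 2826 to 4150 normalised reads with 2DG and 3944 to 5247 without it. Values of the single genes are not given here, so the sum does not show which of them moved. MIXL1, the mesoderm gene, had 832 to 1299 in E7+ActivinA+2DG and 1336 to 1513 in E7+ActivinA, 89.0 to 108 in E7+NODAL+2DG and 486 to 522 in E7+NODAL, 44.6 to 50.3 in E7+2DG and 147 to 168 in E7, and 38.1 to 52.0 in E7+TGFb+2DG and 153 to 182 in E7+TGFb. The part of these markers in the results was not tested. The E7+ActivinA libraries stood apart: the 2 libraries differed by 50.3 times the counting variance (the chi-square over genes divided by its degrees of freedom), while the ratio was 13.9 with 2DG added to that medium, 9.53 for E7, 5.03 for E7+2DG and 1.55 to 3.27 elsewhere. A single fit pools the spread of all groups, and the standard error for 2DG in E7 was larger with the 4 Activin A libraries than without them for 47 of the 47 genes, with medians of 0.115 and 0.0734. Counts are therefore also given without those 4 libraries, each beside the share of all genes called in the same fit.

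Together the 47 genes held 1.17 to 1.32% of all normalised reads in a library. The share averaged 1.258% ± 0.014 in E7+2DG and 1.32% ± 0.0034 in E7 (SD, n = 2). In the TGFb medium it was 1.28% ± 0.015 with 2DG and 1.27% ± 0.0038 without it. In the Activin A medium the values were 1.25% ± 0.0028 with 2DG and 1.23% ± 0.0099 without it, and in the NODAL medium they were 1.21% ± 0.0086 with 2DG and 1.18% ± 0.0032 without it. E7 had the highest share and E7+NODAL the lowest. For 44 of 47 genes the highest library was less than 2 times the lowest, with a median ratio of 1.52. The exceptions were EIF1AY with 2.23, EIF5A2 with 2.26 and EIF5AL1 with 2.42. EIF5A2 and EIF5AL1 are among the genes with the fewest reads. The same ratio was not taken for all genes, so its size is not shown to be particular to these 47.

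Per kilobase of transcript, levels over the 16 libraries spanned 16.7 to 8120 normalised reads. EIF4G2, which encodes a relative of eIF4G that lacks the eIF4E-binding part, was highest at 8120, ahead of the helicase cofactor EIF4B at 7460, the eIF3 subunit EIF3E at 7414 and EIF5A at 7342, the hypusine-bearing factor that helps ribosomes past difficult peptide bonds. Of the helicase genes, EIF4A2 stood at 5271 per kilobase and EIF4A1 at 32.8. The value of EIF4A1 is uncertain, since 48.6% of its annotated exon bases also belong to the readthrough gene SENP3-EIF4A1 or to AC016876.2 on the same strand, and how such reads were counted is not given in the sources used here. The eIF2B genes were low, with EIF2B1 at 605 and EIF2B2 at 129 per kilobase, and so were EIF4E3 at 97.8, EIF3CL at 31.5 and EIF5AL1 at 16.7. All values per kilobase rest on the annotated length, which was 4314 bases for EIF2B2 and 1768 for EIF2B1. Which transcripts the cells made was not measured. EIF3C and EIF3CL, EIF5A and EIF5AL1, EIF1AX and EIF1AY, and EIF1 and EIF1B are pairs of closely related genes whose reads may have been split between them, which was not measured, and EIF3L shares 51.8% of its exon bases with other genes, so these values are uncertain.

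**Figure D1:**
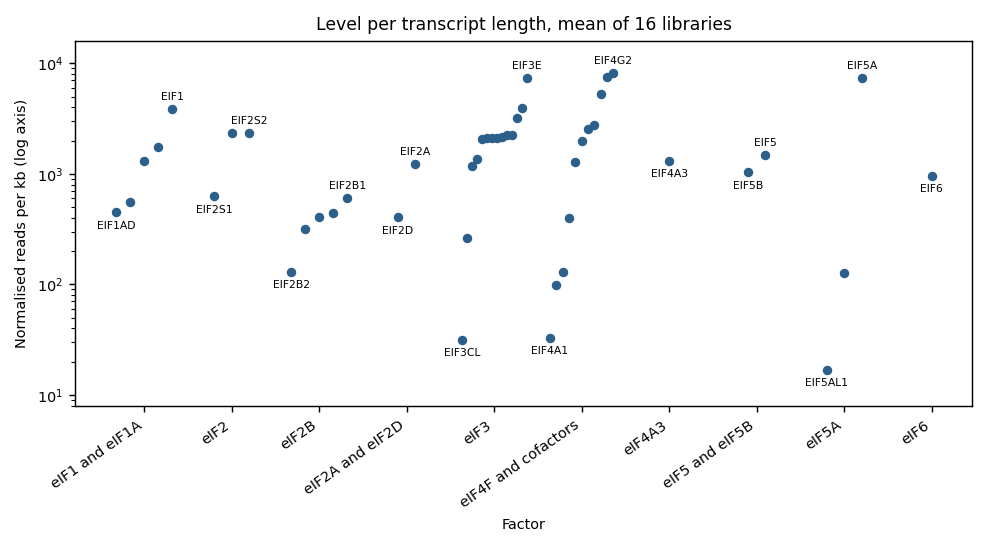
Mean of 16 libraries in normalised reads per kilobase of transcript (log axis) for the 47 genes, grouped by factor along the horizontal axis, each point a gene and the lowest and highest of each factor named. Of the eIF3 genes, 7 lie between 2072 and 2248, and the eIF4F genes run from 32.8 for EIF4A1 to 8120 for EIF4G2.

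Of the 14 eIF3 genes 7, EIF3A, EIF3B, EIF3D, EIF3G, EIF3H, EIF3I and EIF3L, had levels between 2072 and 2248 normalised reads per kilobase. EIF3E, EIF3K at 3957 and EIF3F at 3195 lay above them, and EIF3J, a loosely bound subunit, at 1365, EIF3M at 1178, EIF3C at 263 and EIF3CL at 31.5 lay below.

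Across the groups, E7 had the highest mean of the 8 for 27 of the 47 genes, which is 57.4% of them against 20.7% of all genes tested. E7+NODAL had the lowest mean for 20 genes, 42.6% against 14.3% of all genes. In 11 genes both E7 libraries lay above all 14 others, 23.4% against 6.12% of all genes, and in 0 did both lie below the others, against 4.21% of all genes. The 11 were EIF1AX, EIF2A, EIF2B3, EIF2D, EIF2S1, EIF3E, EIF3J, EIF3M, EIF4A2, EIF4E and EIF5B. These counts were added after the data had been seen, and every comparison with E7 below shares those 2 libraries.

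**Figure D2:**
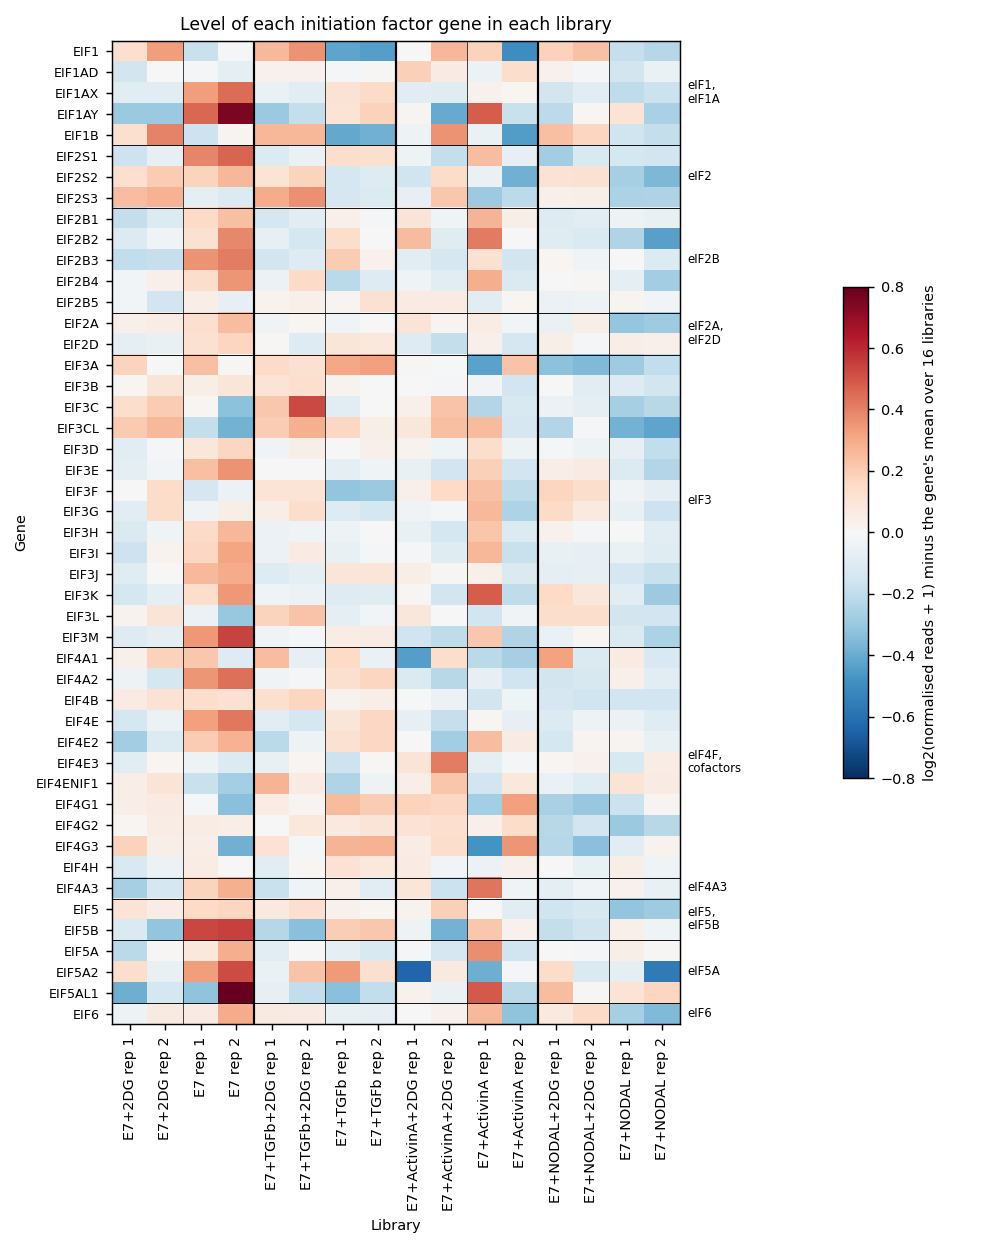
Rows are the 47 genes by factor and columns the 16 libraries, with each 2DG group left of the same medium without 2DG; colour is log2(normalised reads + 1) minus the gene's mean over the libraries, red above and blue below. The E7 columns are red for most genes, with EIF1, EIF1B, EIF3C, EIF3CL and EIF3L among those that are not, and the 2 E7+ActivinA columns differ in colour for many genes.

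In E7, 2DG lowered more of these genes than it raised. Of the 47, 14 fell and 2 rose (limma, Benjamini-Hochberg adjusted p under 0.05), beside 14.8% of all genes that fell and 14.6% that rose. The median log2 fold change of the 47 was -0.16, against -0.00 for all genes tested. Both E7+2DG libraries lay below both E7 libraries for 26 genes, 55.3% against 34.8% of all genes, and above them for 9, 19.1% against 34.1%. With every library scaled to the same total, 13 fell and 5 rose (12.2% and 16.9% of all genes), with medians of -0.11 for the 47 and 0.05 for all genes. Without the 4 Activin A libraries 20 fell and 10 rose, beside 22.7% and 23.3% of all genes. The count of 16 depended on single libraries: leaving out E7 replicate 2 gave 6 (9.54% of all genes), leaving out E7+2DG replicate 1 gave 8 (13.6%), and leaving out either E7+ActivinA library gave 28 (42.0%). Across the 4 media averaged, a contrast added after the data had been seen, 8 rose and 10 fell, beside 19.2% of all genes that rose and 19.4% that fell.

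**Figure D3:**
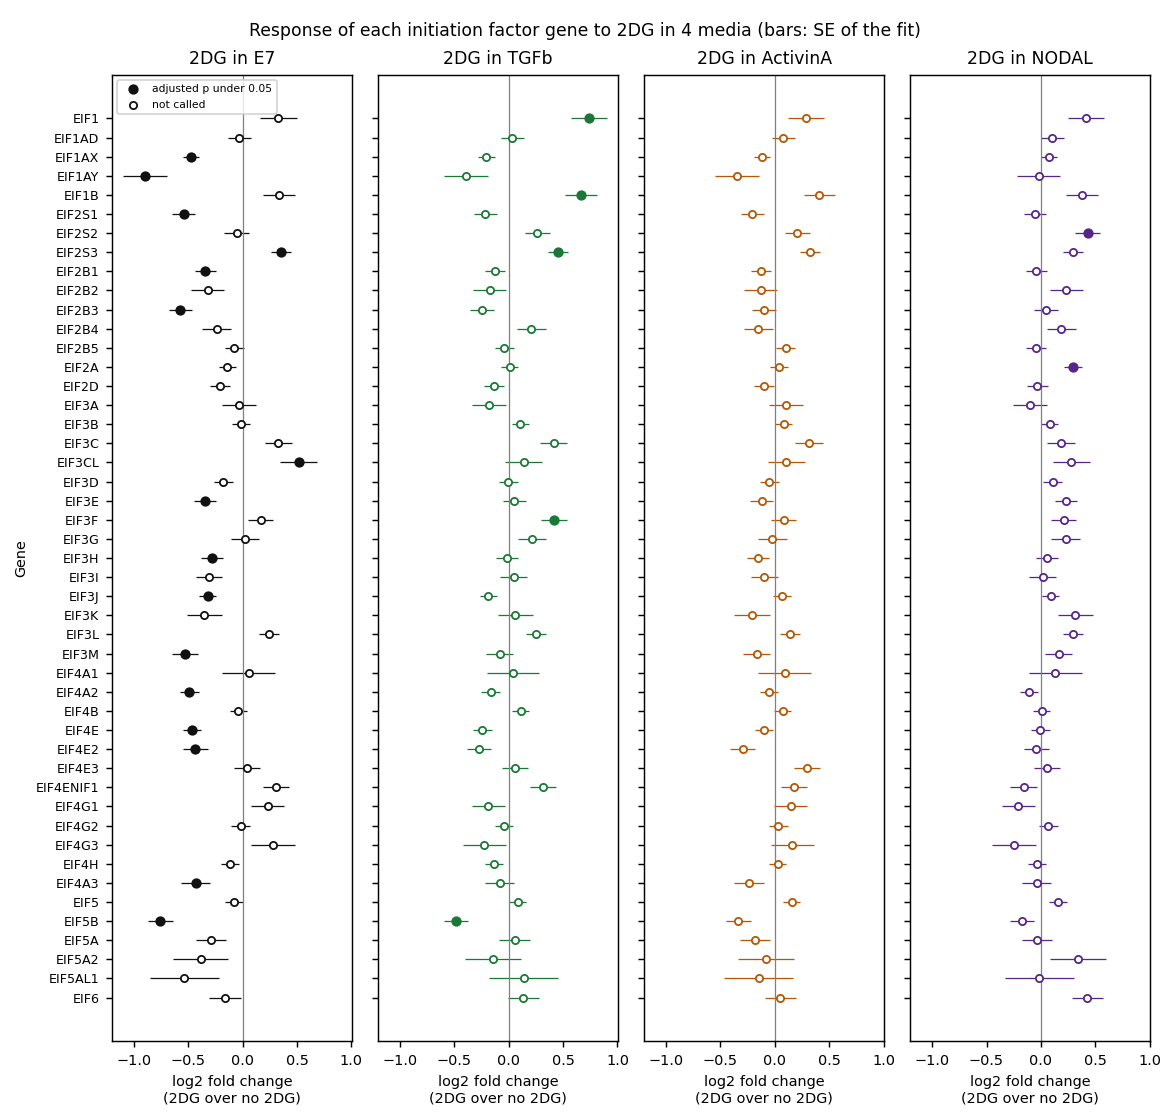
Log2 fold change of each gene with 2DG over the same medium without it, in 4 panels for E7 and for the TGFb, Activin A and NODAL media, with the standard error of the fit as a bar and called genes filled. In E7 the filled points lie mostly below 0, as with EIF5B at -0.76, and in the TGFb medium EIF1 at 0.74 and EIF1B at 0.66 are the filled points farthest above 0.

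In the other media fewer genes were called. In the TGFb medium 4 of 47 rose with 2DG (5.47% of all genes) and 1 fell (4.37% of all genes), with a median of 0.01, and the libraries did not overlap in 19 higher and 17 lower genes, 40.4% and 36.2% against 32.5% and 33.3% of all genes. With a correction for transcript length 5 rose and 5 fell there, beside 8.398% and 8.86% of all genes. In the NODAL medium 2 rose (3.11% of all genes) and 0 fell (2.76% of all genes), with a median of 0.07, and the libraries did not overlap in 23 higher and 9 lower genes, 48.9% and 19.1% against 30.6% and 32.1% of all genes. In the Activin A medium limma called 0 of 47 (1.70% of all genes were called). There, 6 of the 47 had an unadjusted p under 0.05, beside 20.2% of all genes. edgeR called 0 and DESeq2 called 1, beside 1.77% and 3.60% of all genes. The libraries did not overlap in 8 higher and 3 lower genes, 17.0% and 6.38% against 17.2% and 16.6% of all genes. Without the 4 Activin A libraries the counts were 9 up and 7 down in the TGFb medium, beside 11.9% and 12.99% of all genes, and 12 up and 0 down in the NODAL medium, beside 10.4% and 10.2%.

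EIF1, the factor that keeps the scanning ribosome from accepting a wrong start codon, and its close relative EIF1B rose with 2DG over the 4 media. On GRCh38 (GENCODE 29) EIF1 lies at chr17:41688885-41692668 (+) and EIF1B at chr3:40309684-40312424 (+). EIF1 had 7032 and 7543 normalised reads in E7+TGFb+2DG, against 4391 and 4327 in E7+TGFb. It had 6454 and 7404 in E7+2DG, against 5199 and 5822 in E7, and 6686 and 6913 in E7+NODAL+2DG, against 5174 and 5012 in E7+NODAL. In these 3 media all libraries with 2DG lay above those without, whereas in the Activin A medium, with 5862 and 7075 in E7+ActivinA+2DG and 6673 and 4161 in E7+ActivinA, the groups overlapped. The rise passed the test in the TGFb medium, at 0.74 on the log2 scale (SE 0.17, adjusted p = 0.0138), and over the 4 media, at 0.44 (SE 0.08, adjusted p = 0.00101). The call in the TGFb medium was lost when any of its 4 libraries was left out, with adjusted p = 0.0778 to 0.11. In the other 3 media taken alone the log2 values were 0.33, 0.29 and 0.42 for E7, Activin A and NODAL.

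EIF1B had 1562 and 1564 normalised reads in E7+TGFb+2DG, against 978 and 995 in E7+TGFb. It had 1417 and 1708 in E7+2DG, against 1157 and 1320 in E7, and 1263 and 1670 in E7+ActivinA+2DG, against 1252 and 953 in E7+ActivinA. In E7+NODAL+2DG it had 1534 and 1460, against 1163 and 1138 in E7+NODAL. Here the libraries with 2DG lay above those without in all 4 media. Its log2 values were 0.66 (SE 0.15, adjusted p = 0.0128) in the TGFb medium and 0.45 (SE 0.07, adjusted p = 0.000396) over the 4 media, and again the TGFb call was lost without any of its 4 libraries (adjusted p = 0.0868 to 0.0927).

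The genes for eIF1A, which binds the decoding site beside eIF1, went the other way in E7, but not in every medium. EIF1AX fell in E7, with 4237 and 4238 normalised reads in E7+2DG against 5666 and 6117 in E7 (log2 fold change -0.47, SE 0.07, adjusted p = 0.000945). EIF1AY fell there too, by 0.90 on the log2 scale (SE 0.20, adjusted p = 0.00568), which no longer passed when E7 replicate 2 was left out (adjusted p = 0.07). In the TGFb and Activin A media the EIF1AX libraries with 2DG also lay below those without. In the NODAL medium they lay above, with 4051 and 4225 normalised reads in E7+NODAL+2DG against 3892 and 3984 in E7+NODAL. EIF1AY averaged 541 in E7+NODAL+2DG and 552 in E7+NODAL. EIF1AD, a nuclear protein with an eIF1A-like domain, had log2 values between -0.03 and 0.11 in the 4 media.

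The 3 subunits of eIF2 did not move together. EIF2S3, at chrX:24054716-24077971 (+), encodes the gamma subunit, which binds GTP and the initiator tRNA. It had 7816 and 7962 normalised reads in E7+2DG, against 6270 and 6087 in E7, and 8072 and 8464 in E7+TGFb+2DG, against 5990 and 6106 in E7+TGFb. It had 6279 and 7650 in E7+ActivinA+2DG, against 5375 and 5692 in E7+ActivinA, and 6766 and 6782 in E7+NODAL+2DG, against 5517 and 5541 in E7+NODAL. The libraries with 2DG were the higher ones in every medium. The rise was called in E7 (0.35, SE 0.09, adjusted p = 0.0119), in the TGFb medium (0.45, SE 0.09, adjusted p = 0.00838) and over the 4 media (0.36, SE 0.05, adjusted p = 6.4e-05). In E7 the call ended when either E7+2DG library or E7 replicate 2 was left out (adjusted p = 0.057 to 0.0896), and in the TGFb medium without any of the 4 libraries (0.0545 to 0.0867).

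EIF2S1, at chr14:67359997-67386516 (+), encodes the alpha subunit that stress kinases phosphorylate. It had 1896 and 2029 normalised reads in E7+2DG, against 2784 and 2925 in E7. The E7 libraries were well above the 2DG libraries, and the fall (-0.54, SE 0.10, adjusted p = 0.00276) was called without each library in turn. The log2 values were -0.22, -0.21 and -0.05 in the TGFb, Activin A and NODAL media, none of them called. The beta subunit EIF2S2, which binds eIF5 and eIF2B, rose in the NODAL medium, with 6652 and 6695 normalised reads in E7+NODAL+2DG against 5103 and 4791 in E7+NODAL (0.43, SE 0.12, adjusted p = 0.0426). Its value in E7 was -0.05. The NODAL call was lost with the replicate number as a block (adjusted p = 0.0602) and when any library outside the Activin A groups was left out, with adjusted p up to 0.255. All 5 subunits of eIF2B had negative log2 values in E7, and 2 fell, beside 14.8% of all genes: EIF2B3 had 455 and 458 normalised reads in E7+2DG, against 667 and 691 in E7 (-0.57, SE 0.11, adjusted p = 0.00244), and EIF2B1 fell by 0.35. EIF2A, which can bring the initiator tRNA without eIF2, rose in the NODAL medium (0.29, SE 0.08, adjusted p = 0.0461), a call that was missed by edgeR (adjusted p = 0.0502), with equal totals (0.0581) and with the replicate number as a block (0.0651), and that ended without any of the 12 libraries outside the Activin A groups. EIF2D, a factor of reinitiation and ribosome recycling, had log2 values of -0.21 to -0.03 and was not called.

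**Figure D4:**
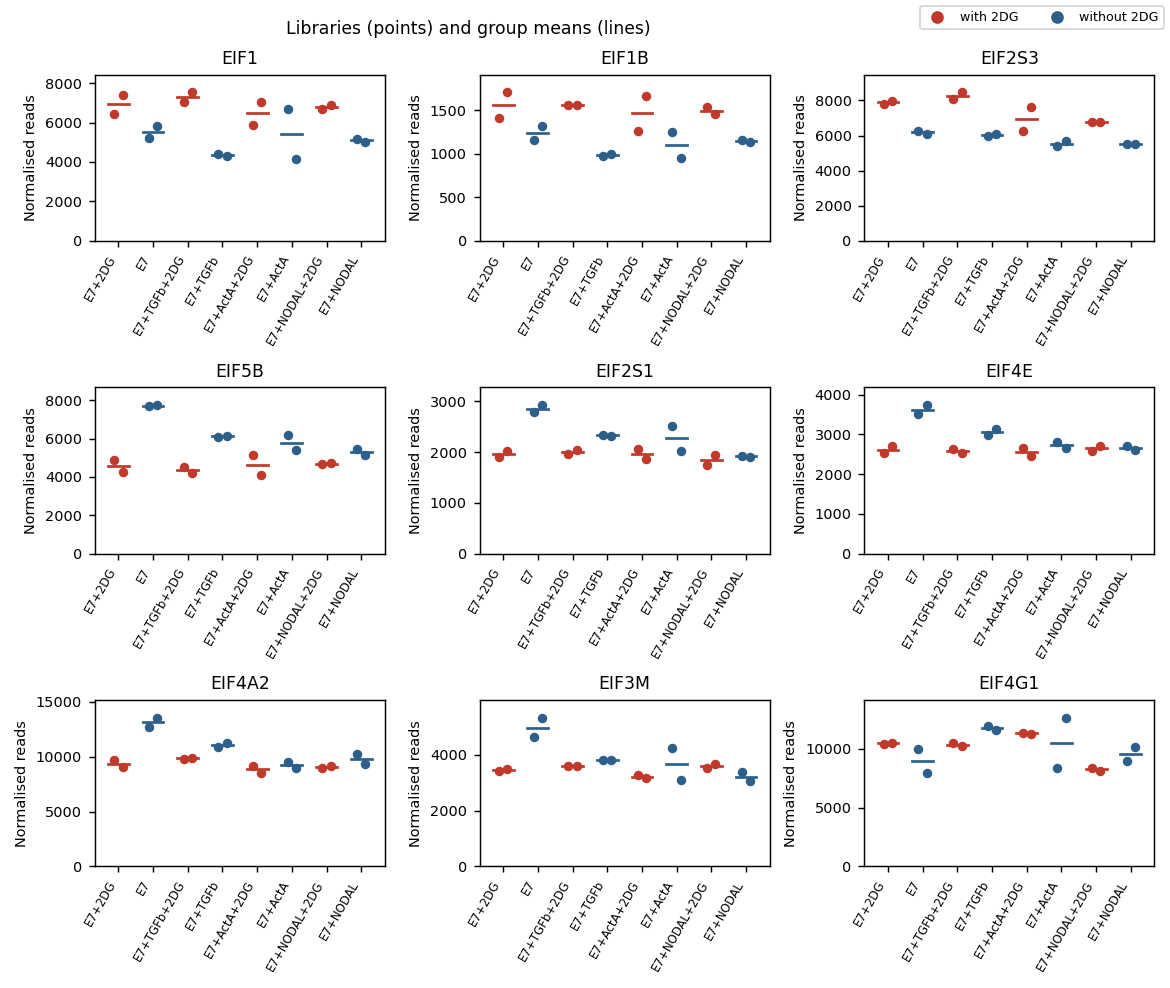
Normalised reads of 9 genes in the 16 libraries (points, 2DG in red and no 2DG in blue) with group means as lines, each axis starting at 0. EIF1, EIF1B and EIF2S3 have their red points high, EIF5B, EIF2S1, EIF4E, EIF4A2 and EIF3M have the 2 E7 points at the top, and EIF4G1 has its widest spread between the 2 E7+ActivinA libraries.

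Of 14 eIF3 genes, 4 fell and 1 rose with 2DG in E7 (14.8% of all genes fell and 14.6% rose), with a median of -0.11. EIF3M, a subunit of the outer part of the complex, had 3401 and 3473 normalised reads in E7+2DG, against 4634 and 5312 in E7 (-0.53, SE 0.12, adjusted p = 0.00654), which no longer passed when E7 replicate 2 was left out (adjusted p = 0.0817). EIF3E, EIF3J and EIF3H fell by 0.35, 0.32 and 0.29. EIF3CL rose, with 110 and 114 normalised reads in E7+2DG against 83.3 and 73.1 in E7 (0.52, SE 0.17, adjusted p = 0.0355). It was no longer called with DESeq2 (adjusted p = 0.0714), with the length correction (0.0653), with the E7 and E7+2DG libraries alone (0.0557) or without any of those 4 libraries. EIF3C and EIF3L were higher with 2DG in every library of all 4 media without overlap, as were EIF1B and EIF2S3; these 4 are 8.51% of the 47, against 6.47% of all genes. EIF3F, a subunit with a deubiquitinase-like fold, rose in the TGFb medium, with 4295 and 4286 in E7+TGFb+2DG against 3196 and 3239 in E7+TGFb (0.42, SE 0.12, adjusted p = 0.0386). That call was lost with the replicate number as a block (adjusted p = 0.0538) and without any of 10 libraries, among them all 4 of that medium. Over the 4 media EIF3C, EIF3CL, EIF3F and EIF3L rose, by 0.31, 0.26, 0.22 and 0.23, and no eIF3 gene fell. Of these, EIF3CL was no longer called with DESeq2 (adjusted p = 0.0615) or without any of 8 libraries (up to 0.0689). The scaffold subunit EIF3A had -0.03 in E7 (SE 0.16), with 13138 and 11655 normalised reads in E7+2DG and 13735 and 11701 in E7, and it was called with the length correction (adjusted p = 0.00305).

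Among the eIF4F genes and their cofactors 3 of 11 fell in E7 and 0 rose (14.8% and 14.6% of all genes), with a median of -0.02. The cap-binding EIF4E had 2526 and 2696 normalised reads in E7+2DG, against 3499 and 3733 in E7 (-0.47, SE 0.08, adjusted p = 0.00173). EIF4A2 had 9667 and 9036 in E7+2DG, against 12735 and 13515 in E7 (-0.49, SE 0.08, adjusted p = 0.00147). Neither gene's groups overlapped, and both calls were kept when each library was left out in turn. EIF4E2, a cap-binding protein that takes part in repressing mRNAs, fell by 0.44. The scaffold EIF4G1 was not called: it had 10447 and 10527 normalised reads in E7+2DG, against 9994 and 7985 in E7 (0.23, SE 0.15), and without the 4 Activin A libraries its adjusted p was 0.0296. EIF4G3, another scaffold, had 0.28 in E7 and -0.22 and -0.25 in the TGFb and NODAL media, none of them called. EIF4A1 had 55.0 and 60.9 in E7+2DG and 62.2 and 49.7 in E7. EIF4A3 is a close relative of eIF4A that works in the exon junction complex, not in scanning, and it fell by 0.43 in E7. It also fell over the 4 media, a call that ended without any of 8 libraries (adjusted p up to 0.084).

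EIF5B, the GTPase that joins the ribosomal subunits, lies at chr2:99337353-99401326 (+) and had the largest called fall of the 47 over the 4 media. It had 4892 and 4258 normalised reads in E7+2DG, against 7681 and 7738 in E7, and 4528 and 4199 in E7+TGFb+2DG, against 6067 and 6144 in E7+TGFb. It had 5155 and 4071 in E7+ActivinA+2DG, against 6158 and 5418 in E7+ActivinA, and 4645 and 4745 in E7+NODAL+2DG, against 5454 and 5163 in E7+NODAL. It was the only one of the 47 lower in every 2DG library of all 4 media, which is 2.13% of them against 5.16% of all genes. The log2 fold change was -0.76 in E7 (SE 0.11, adjusted p = 0.000669), -0.49 in the TGFb medium (SE 0.11, adjusted p = 0.0159) and -0.44 over the 4 media (SE 0.06, adjusted p = 6e-05). The call in E7 was kept without each library in turn, and that in the TGFb medium was lost without any of its 4 libraries (adjusted p = 0.0737 to 0.136). EIF5, which makes eIF2 hydrolyse its GTP, had log2 values of -0.08 to 0.16.

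EIF5A was not called with 2DG. It had 8201 and 9574 normalised reads in E7+2DG, against 10093 and 11649 in E7 (-0.29, SE 0.14), and without the 4 Activin A libraries its adjusted p was 0.004. EIF6, which keeps the ribosomal subunits apart, had 1165 and 1259 in E7+2DG, against 1254 and 1469 in E7 (-0.16, SE 0.14). In the NODAL medium its value was 0.43, also without a call.

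The ligands were each compared with E7, and so with the same 2 libraries. NODAL lowered 19 of the 47 and raised 0 (10.9% of all genes fell and 10.6% rose), with a median of -0.26 against 0.01 for all genes. Activin A lowered 8 and raised 0 (4.74% fell and 5.28% rose), with a median of -0.16 against -0.01. For TGFb limma called 0 of the 47, and 0.0% of all genes. There 19 of the 47 had an unadjusted p under 0.05, beside 22.6% of all genes, and without E7 replicate 2 the number was 2, beside 4.96%. edgeR called 0 and DESeq2 called 1, beside 0.0% and 1.27% of all genes. Without the 4 Activin A libraries 22 fell and 2 rose, beside 12.7% and 13.996% of all genes. The TGFb median was -0.18 against -0.02 for all genes. With the length correction it was -0.078 against -0.03, and 11 of the 47 had an unadjusted p under 0.05, beside 20.3% of all genes. In the uncorrected values 30 of the 47 had both E7+TGFb libraries below both E7 libraries, 63.8% against 32.7% of all genes. The same count was 18 for Activin A, 38.3% against 21.4%, and 34 for NODAL, 72.3% against 32.9%.

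Leaving out single libraries moved these counts. For NODAL the count was 6 without E7 replicate 2 or without E7+NODAL replicate 2 (5.02% and 5.25% of all genes) and 29 without either E7+ActivinA library (34.1%). For Activin A it was 4 without E7 replicate 1 (6.003%), 1 without E7 replicate 2 (3.85%) and 23 without E7+ActivinA replicate 1 (28.5%), and it was 0 in a fit to the E7 and E7+ActivinA libraries alone (0.507%). For TGFb it was 19 without either E7+ActivinA library (20.1%). With every library scaled to the same total, which moved the median of all genes for NODAL to 0.13, 13 genes fell and 1 rose with NODAL, beside 5.48% and 16.01% of all genes.

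The falls with NODAL, beside 10.9% of all genes, were in 2 of 5 eIF1 and eIF1A genes, 2 of 3 eIF2, 3 of 5 eIF2B, 4 of 14 eIF3, 4 of 11 eIF4F, both of eIF5 and eIF5B, EIF2A and EIF6. EIF3M had 3371 and 3061 normalised reads in E7+NODAL, against 4634 and 5312 in E7 (-0.63, SE 0.12, adjusted p = 0.0040). EIF2B2 had 467 and 408 in E7+NODAL, against 602 and 723 in E7 (-0.59, SE 0.15, adjusted p = 0.0152). In both, and in EIF1AY (-0.68, SE 0.20, adjusted p = 0.0288), the groups did not overlap. The calls of these 3 genes were lost without E7 replicate 2 and without E7+NODAL replicate 2, where adjusted p was 0.0555 to 0.232, and EIF1AY was not called with equal totals (0.0573).

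EIF2S1 fell by 0.57 with NODAL (SE 0.10, adjusted p = 0.00298), with 1926 and 1908 normalised reads in E7+NODAL. EIF4E fell by 0.45 (SE 0.08, adjusted p = 0.00335), with 2699 and 2608. Both calls were kept without each library in turn. EIF6 fell by 0.49 (adjusted p = 0.0281), with 995 and 936 in E7+NODAL against 1254 and 1469 in E7, but its adjusted p was 0.0713 with equal totals and up to 0.218 without E7 replicate 2 or either E7+NODAL library. EIF4G1 had 8949 and 10212 in E7+NODAL (0.10), EIF5A 9824 and 9588 (-0.16), EIF3A 9540 and 10132 (-0.37) and EIF4A1 56.0 and 49.0 (-0.09), none of them called. Without the 4 Activin A libraries, EIF3A was called (adjusted p = 0.00069).

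The 8 genes that fell with Activin A were EIF4A2, EIF3M, EIF2S2, EIF5B, EIF2B3, EIF4E, EIF1AX and EIF3J. EIF4A2 had 9514 and 8923 normalised reads in E7+ActivinA, against 12735 and 13515 in E7 (-0.51, SE 0.08, adjusted p = 0.00156), and it was called without each library in turn. EIF3M had 4228 and 3082 in E7+ActivinA (-0.46, adjusted p = 0.0293) and EIF2S2 had 5936 and 4717, against 6944 and 7400 in E7 (-0.44, adjusted p = 0.0284). A fit to the E7 and E7+ActivinA libraries alone called none of these genes. Its limma adjusted p was 0.299 for EIF4A2, 0.51 for EIF3M and 0.463 for EIF2S2. The 2 Activin A libraries of EIF3M and EIF2S2 lay far apart, though both were below the E7 libraries. Both calls ended without E7 replicate 2 or E7+ActivinA replicate 2 (adjusted p = 0.0858 to 0.239), and that of EIF2S2 also without E7 replicate 1 (0.0706).

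With 2DG present, each ligand was compared with E7+2DG, and limma called 0 of the 47 for TGFb, Activin A and NODAL, beside 0.0%, 7.52% and 0.634% of all genes. At an unadjusted p under 0.05 there were 0, 1 and 6 genes, beside 1.63%, 18.045% and 16.7% of all genes. In each comparison edgeR and DESeq2 called 0 of the 47. The shares of all genes called were 0.0%, 7.54% and 0.58% with edgeR, and 0.0%, 7.72% and 1.66% with DESeq2. The medians of the 47 were 0.05, 0.00 and 0.01. Without the 4 Activin A libraries 7 fell and 1 rose with NODAL, beside 10.6% and 7.26% of all genes.

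**Figure D5:**
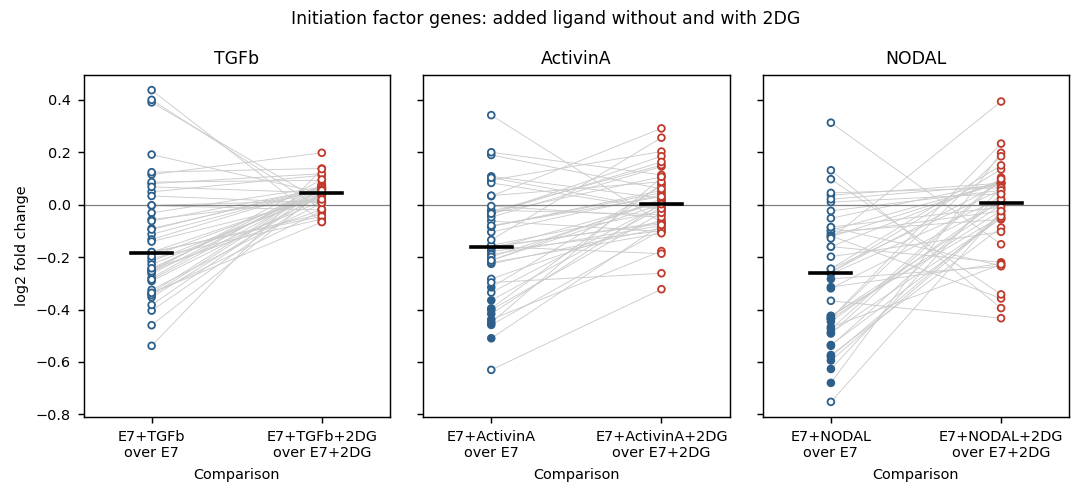
Log2 fold changes of the 47 genes for each ligand, over E7 (left of each panel, blue) and over E7+2DG (right, red), with grey lines joining a gene, black bars at the medians and called genes filled. The medians over E7 are -0.18, -0.16 and -0.26 for TGFb, Activin A and NODAL, and those over E7+2DG are 0.05, 0.00 and 0.01.

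Whether a ligand changed the response to 2DG was tested as an interaction, the log2 response in that medium minus the response in E7. For NODAL 1 of the 47 was called (1.87% of all genes were called), with a median of 0.29 against -0.01 for all genes. It was EIF1AX, which had 4051 and 4225 normalised reads in E7+NODAL+2DG and 3892 and 3984 in E7+NODAL, against 4237 and 4238 in E7+2DG and 5666 and 6117 in E7. Its interaction was 0.55 on the log2 scale (SE 0.11, adjusted p = 0.0383). It was lost with the replicate number as a block (adjusted p = 0.0584) and without any of 11 libraries (up to 0.204). For TGFb and for Activin A limma called 0 (0.0% and 0.0419% of all genes), and edgeR and DESeq2 also called 0. At an unadjusted p under 0.05 there were 6 and 7 genes, beside 12.1% and 9.87% of all genes. Without the 4 Activin A libraries 15 were called for TGFb, 13 of them positive, beside 15.0% of all genes, and 26 for NODAL, 23 of them positive, beside 29.1%. For NODAL, DESeq2 called 11 of the 47, all positive, beside 10.1% of all genes. In the limma fit to all 16 libraries, a gene called with 2DG in E7 and not in another medium is not shown to respond differently there, except EIF1AX with NODAL.

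Transcript length moved with several of these comparisons. Across all genes, Spearman's rho between length and log2 fold change was 0.34 for 2DG in E7, 0.457 for TGFb in E7, 0.258 for NODAL in E7 and -0.334 for NODAL with 2DG. Across the 47 it was 0.193, 0.376, 0.136 and -0.542. Genes share libraries and are not independent, so no p is given, and the part of length in the results was not tested beyond the length correction, under which 6 rose and 16 fell with 2DG in E7 (14.8% and 17.9% of all genes) and 25 fell with NODAL (15.9%).

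Over the 8 group means, each gene's likeness to the others was measured as Pearson's r with the mean z-score of the other 46. It was highest for EIF3D (0.957), which encodes a subunit that can itself bind caps, followed by EIF2A (0.879) and EIF1AX (0.861), and it was above 0.8 for 9 genes. It was below 0 for 8: EIF1, EIF1B, EIF4G1, EIF4G3, EIF3L, EIF4E3, EIF3F and, lowest at -0.56, EIF4ENIF1, the protein that carries eIF4E into the nucleus. The 8 points share libraries and scaling, so these are descriptions.

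Among genes that act on the factors, EIF4EBP1, which encodes a repressor of eIF4E, rose with 2DG in 3 of the 4 media. It averaged 2779 ± 274 normalised reads in E7+2DG and 1551 ± 284 in E7 (SD, n = 2; log2 fold change 0.85, adjusted p = 0.0163), 2813 ± 44.0 in E7+TGFb+2DG and 1156 ± 26.8 in E7+TGFb (1.28, adjusted p = 0.0048), and 2658 ± 182 in E7+NODAL+2DG and 1237 ± 18.5 in E7+NODAL (1.10, adjusted p = 0.0159). In the Activin A medium it had 0.76 without a call. EIF4EBP2 rose in E7 (0.40), and EIF4EBP3 was under the filter. Of 6 eIF2alpha kinases and phosphatase subunits 4 rose and 0 fell in E7, beside 14.6% and 14.8% of all genes. Their median was 0.42. The 4 were the kinases EIF2AK2 (0.55) and EIF2AK3 (0.47), and PPP1R15A (0.63) and PPP1R15B (0.38), which direct the phosphatase that reverses the mark. EIF2AK4, the kinase that senses uncharged tRNA, fell in the TGFb and NODAL media by 0.49 and 0.61. In the TGFb medium 2 of the 6 rose and 1 fell (5.47% and 4.37% of all genes), with a median of 0.22. In the NODAL medium 0 rose and 1 fell (3.11% and 2.76% of all genes), with a median of -0.02. In the Activin A medium 0 were called (1.70% of all genes were called), with a median of 0.32.

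Of 10 targets of the integrated stress response, the programme that follows eIF2alpha phosphorylation, 9 rose in E7 and 10 in the TGFb medium. In the Activin A medium 9 rose and in the NODAL medium 8, and 0 fell in any medium. The medians were 2.51, 2.59, 2.06 and 1.44 in this order. Of all genes 14.6%, 5.47%, 1.48% and 3.11% rose and 14.8%, 4.37%, 0.22% and 2.76% fell. DDIT3 rose by 3.25, ATF5 by 3.68 and ASNS by 1.72 in E7, while ATF4 itself had 0.08 there without a call. Of 6 mTORC1 brakes, which include the stress targets DDIT4 and SESN2, 4 rose and 1 fell in E7, beside 14.6% and 14.8% of all genes. In the TGFb medium 2 rose and 2 fell (5.47% and 4.37% of all genes). In the Activin A medium 2 rose and 0 fell (1.48% and 0.22%), and in the NODAL medium 1 rose and 1 fell (3.11% and 2.76%).

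Of 20 initiation partners outside the family 4 rose and 7 fell with 2DG in E7, beside 14.6% and 14.8% of all genes. Their median was -0.16, the same as for the 47 genes. LARP1, which binds mRNAs with a terminal oligopyrimidine start, rose by 1.04, and GIGYF1, a partner of EIF4E2, by 0.72. PAIP2, an inhibitor of the poly(A)-binding protein, fell by 0.78, BZW1 and BZW2, which mimic part of eIF5, by 0.66 and 0.71, and the reinitiation factors MCTS1 and DENR by 0.67 and 0.31. With NODAL in E7 1 of the 20 partners rose and 9 fell, beside 10.6% and 10.9% of all genes. Of 11 elongation and termination factors tested 2 rose and 3 fell in E7 with 2DG, beside 14.6% and 14.8% of all genes. The 2 were EEF2, the elongation factor that moves the ribosome along (0.89, SE 0.10, adjusted p = 0.000229), and its inhibitory kinase EEF2K (0.73).

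Promoters from 250 bases before to 50 after the annotated start were found in the RefSeq table (GRCh38.p14) for 40 of the 47. The E-box CACGTG, which MYC and USF proteins bind, stood in 10 of the 40, or 25%, against 9.84% of 11367 promoters of genes in the data table. TGATGNAA, the letters of the ATF4 and C/EBP composite, was in 0 of the 40 (1.59% of all) and the cyclic AMP element TGACGTCA in 0 (3.14% of all). Both strands were searched for each motif. The 10 were EIF1B, EIF2B3, EIF3F, EIF3K, EIF4A3, EIF4B, EIF4E, EIF4G1, EIF4H and EIF5A2. They include genes that rose with 2DG over the 4 media (EIF1B, EIF3F) and genes that fell (EIF2B3, EIF4A3, EIF4E), so the windows of these 5 are printed, 60 bases on the gene's strand with the E-box in capitals. They come from chr3:40309627-40309686 (+) for EIF1B, chr11:7987243-7987302 (+) for EIF3F, chr1:44986741-44986800 (-) for EIF2B3, chr17:80147216-80147275 (-) for EIF4A3 and chr4:98929172-98929231 (-) for EIF4E, whose promoter holds a further E-box upstream.
EIF1B: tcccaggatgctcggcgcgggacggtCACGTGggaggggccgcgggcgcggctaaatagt
EIF3F: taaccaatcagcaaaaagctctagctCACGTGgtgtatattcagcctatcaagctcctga
EIF2B3: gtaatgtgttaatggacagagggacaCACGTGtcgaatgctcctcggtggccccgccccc
EIF4A3: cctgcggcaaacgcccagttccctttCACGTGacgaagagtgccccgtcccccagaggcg
EIF4E: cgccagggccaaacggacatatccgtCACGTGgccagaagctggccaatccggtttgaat
The E-box began 54, 68, 179, 121 and 72 bases before the start in EIF1B, EIF3F, EIF2B3, EIF4A3 and EIF4E. A match describes the letters and does not show binding.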

How the data were processed

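The deposited signal is, for each gene, the authors' read count over the size factor of its library. Whole reads were recovered, with 100% of values whole within 1e-06. The hg38 build, STAR, DESeq2 1.26.0, featureCounts 1.5.3 and Trimmomatic 0.36 are listed, per the submitters' processing notes, without roles, annotation or strand setting.

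limma 3.58.1 (R 4.3.3) with an intensity trend was fitted to log2(value + 1) of 16714 genes with at least 10 in at least 2 libraries, as 8 group means over 16 libraries. Two-sided p-values were adjusted by Benjamini-Hochberg over all genes within a contrast and called under 0.05. Fold changes are on that log2 scale. The fit was tested on simulated data with the same dispersion (spread beyond counting) for every gene and library. That test therefore does not cover the unequal spread between the groups. Alternatives were TMM, equal totals, a pseudocount of 0.5, no filter, only the contrast's libraries, no Activin A libraries, a replicate block, edgeR 4.0.16, DESeq2 1.42.0, a length correction (loess per library) and each library left out; a lone library was assumed to vary like the others. Positions, lengths (median complete coding transcript) and exon overlaps came from GENCODE 29.

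The genes and lists were chosen with earlier results of these data known. Genes with per-library values were those called with the largest changes, called interactions, and EIF2S1, EIF4E, EIF4G1, EIF4A1, EIF5A, EIF3A and EIF6.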

Additional observations from a re-analysis of the deposited data

Results flagged for a closer look

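The interaction of 2DG with NODAL for EIF1AX was 0.546 on the log2 scale, so the response to 2DG differed between the NODAL medium and E7 by the test of the difference itself. The call ended without any of 11 libraries, among them E7 replicate 2 and all 4 with NODAL.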

How the results depend on the processing

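Counts of genes called among the 47 moved by over 1.5 times under these settings. The share of all genes called in the same fit, given in brackets, often moved as well. It also moved with 1 library left out at a time, as given above. The ranges of counts under that setting, given below without shares, are therefore not shown to be particular to these genes. Without the 4 Activin A libraries the counts were 30 for 2DG in E7 (46.0%), 16 in the TGFb (24.9%) and 12 in the NODAL medium (20.6%). They were 24 for TGFb (26.7%) and 30 for NODAL in E7 (39.2%), and 8 for NODAL with 2DG (17.9%). The interactions with TGFb and NODAL had 15 (15.0%) and 26 (29.1%). With only the libraries of the contrast the counts were 26 for 2DG in the TGFb (40.7%) and 16 in the NODAL medium (30.6%). They were 16 for TGFb (15.2%) and 0 for Activin A in E7 (0.507%), and 9 for NODAL with 2DG (21.9%). The interactions with TGFb and NODAL had 8 (9.53%) and 22 (24.2%). The length correction gave 10 (17.26%), 2 (4.47%) and 6 (11.99%) for 2DG in the TGFb, Activin A and NODAL media. It gave 1 for NODAL with 2DG (2.39%) and 9 for the interaction with NODAL (7.602%). DESeq2 gave 1 for 2DG in the Activin A medium (3.60%), 1 for TGFb in E7 (1.27%) and 11 for the interaction with NODAL (10.1%). For 2DG in the NODAL medium equal totals gave 1 (6.15%) and edgeR 1 (6.23%). The cause was not tested.

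The labels do not say that the replicate numbers mark a shared batch. Differences between replicates correlated above 0.1 in 3 of 28 pairs of groups, a count that cannot show whether the samples are paired. With the replicate number as a block, the counts were 15 for 2DG in E7 and 0 for 2DG in the NODAL medium. They were 18 for NODAL in E7 and 0 for the interaction with NODAL. The shares of all genes called in that fit are not given here.

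Leaving out 1 library at a time gave 6 to 28 for 2DG in E7, 0 to 10 in the TGFb, 0 to 17 in the Activin A and 0 to 9 in the NODAL medium, and 16 to 25 over the 4 media. It gave 0 to 19, 1 to 23 and 6 to 29 for TGFb, Activin A and NODAL in E7, 0 to 0, 0 to 1 and 0 to 6 with 2DG, and 0 to 3, 0 to 15 and 0 to 24 for the interactions.

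Signs turned for values not called in the limma fit to all 16 libraries, 2 of which were called elsewhere (EIF3A for 2DG in E7 with the length correction and EIF4G1 for 2DG in E7 without the 4 Activin A libraries). With equal totals EIF3A had 0.023 for 2DG in E7 and EIF4A1 0.038 for NODAL in E7. With the length correction EIF4G1 had -0.022 for 2DG and -0.071 for NODAL in E7, and EIF6 0.039 for 2DG in E7. With 1 library left out at a time, 2DG in E7 gave -0.15 to 0.081 for EIF3A and -0.10 to 0.22 for EIF4A1, and NODAL in E7 gave -0.24 to 0.073 for EIF4A1 and -0.064 to 0.26 for EIF4G1. Depth limits EIF4A1, EIF5A2, EIF5AL1 and EIF3CL, the genes with the fewest reads.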
